A study of Mus musculus with 20 samples.

Results

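Megakaryocyte-erythroid progenitors (MEP) in which both Bcor and Dnmt3a were targeted were compared with MEP in which Dnmt3a alone was targeted, so that floxed Dnmt3a is shared by both groups and the targeting of Bcor is added. The comparison rests on 5 of the 20 RNA libraries of the series, the 2 Bcor-/-Dnmt3a-/- and the 3 Dnmt3a-/- MEP libraries, which were chosen by genotype and cell type alone. The other MEP libraries (3 WT and 2 Bcor-/-) and the LSK libraries (Lin-Sca1+Kit+ stem and progenitor cells) of the same mice serve as a reference. All mice were C57BL/6 and all cells were sorted from bone marrow. Both groups carried floxed Dnmt3a alleles and the Mx1-Cre transgene, a recombinase under an interferon-inducible promoter that was switched on with pIpC, and the Bcor-/-Dnmt3a-/- mice carried in addition a floxed Bcor allele, from which internal exons are removed. The study describes the deletion of Dnmt3a as partial in the single knockout and as complete in leukemic double knockout mice. It describes the double knockout mice of its RNA comparisons as leukemic. The loss of Bcor, the extent of Dnmt3a loss and overt leukemia therefore cannot be told apart here. The labels of the libraries give neither age nor stage of disease. Each of the 5 libraries came from its own mouse. The 2 double knockout libraries are called DKO1 and DKO2 here.

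MEP are the marrow progenitors that give rise to red cells and to megakaryocytes, the source of platelets, and the balance between both fates is set by transcription factors such as Gata1, Klf1 and Fli1. Bcor is a subunit of PRC1.1, a Polycomb complex that represses genes by ubiquitylating histone H2A at CpG-rich promoters. Dnmt3a is a de novo DNA methyltransferase. Both genes are recurrently mutated in acute myeloid leukemia. The study bred the double knockout to model leukemia with both mutations, and describes the disease that arose as acute erythroid leukemia.

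Expression was given as FPKM, a unit of fragments per transcript length and per size of the library, and how the size was set between these libraries is not given in the sources used here. FPKM carries no counts, so the depth behind each value is unknown. From the steps between values under 0.2 FPKM the 10 MEP libraries lay between 0.824 and 1.33 times the depth of the first Dnmt3a-/- library. DKO2 stood apart from the other MEP libraries. Its FPKM summed to 625758, against 424662 to 476071 in the other 9, and its 10 most abundant genes took 19.4% of that sum, against 6.17% to 7.47% in the others. DKO1 and DKO2 also resembled each other less than other replicates did. Across genes, Pearson's r of log2(FPKM + 1) was 0.812 between them and 0.978 to 0.988 among the Dnmt3a-/- libraries. With the Dnmt3a-/- libraries it was 0.799 to 0.826 for DKO1 and 0.836 to 0.844 for DKO2.

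The deleted genes could not be read from gene-level values. Bcor was at 19.6 and 26.7 FPKM in DKO1 and DKO2 and at 23.3, 25.3 and 23.8 FPKM in the Dnmt3a-/- libraries. Dnmt3a was at 6.85 and 3.44 FPKM in DKO1 and DKO2 and at 5.40, 2.97 and 2.56 FPKM in the Dnmt3a-/- libraries. The groups overlapped for both genes, neither passed the test, and an FPKM over all exons does not check the loss of a few of them. The study describes the Bcor mRNA left after deletion as unstable, and reports none detectable by RT-PCR in Bcor-/- LSK. A general fall of Bcor RNA was not seen in these values, and the reason was not tested. The gate markers were then read. MEP were sorted as Lin-Sca1-Kit+CD34-FcgRII/III lo/- cells. Kit, the stem cell factor receptor on which the sort selects, was at 38.1 and 20.2 FPKM in DKO1 and DKO2 and at 77.9, 68.6 and 62.7 FPKM in the Dnmt3a-/- libraries (log2 fold change -1.29, SE 0.29, limma adjusted p = 0.0408). Fcgr3, an Fc gamma receptor that the gate keeps low, was at 63.9 and 27.9 FPKM against 5.46, 2.18 and 3.64 FPKM (log2 fold change 3.24, SE 0.46, limma adjusted p = 0.0198). Ly6a, which encodes Sca1, was at 17.8 FPKM in DKO1, 1.87 FPKM in DKO2 and at most 0.386 FPKM in the Dnmt3a-/- libraries. Cd34, which the gate also excludes, overlapped between the groups, at 7.02 and 13.8 FPKM against 44.1, 4.46 and 6.08 FPKM. The Bcor-/-Dnmt3a-/- libraries thus held less RNA of Kit and more of Fcgr3 than the controls, and the part of these differences in the results that follow was not tested. In bulk samples fewer cells of a type and less RNA per cell cannot be told apart.

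Of the 24315 genes in the table, 11177 averaged 1 FPKM or more across these 5 libraries and were tested with limma's moderated test on log2(FPKM + 1). Calls used the study's limits, a p below 0.05 and a change of over 1.5-fold, with p taken here before adjustment. On this scale a fold change understates the change of genes with low values. This called 3295 genes, 29.5% of those tested. Of these, 1881 were higher in Bcor-/-Dnmt3a-/- MEP (16.8% of the tested genes) and 1414 were lower (12.7%). With a Benjamini-Hochberg adjusted p under 0.05 there were 1963 genes (17.6%), 981 higher (8.78%) and 982 lower (8.79%). Both double knockout libraries lay above every Dnmt3a-/- library in 28.5% of the tested genes and below every one in 27.2%, and all 3295 called genes were among these. For a single gene, the exact permutation test of 2 libraries against 3 cannot give a p below 0.1.

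Limits of these counts follow from the small groups and the wide gap between DKO1 and DKO2. With a separate variance for each genotype limma called 2392 genes at the unadjusted thresholds and 0 after adjustment (smallest adjusted p 0.0841). Leaving out the first, the second or the third Dnmt3a-/- library left 2838, 2377 and 2378 genes at the unadjusted thresholds and 2, 0 and 1 after adjustment. An adjusted p under 0.05 in the text therefore rests on all 3 Dnmt3a-/- libraries and on a variance shared by both genotypes. The split by direction depended on scaling, since quantile normalization gave 1242 higher and 2282 lower genes and centring each library on its median gave 1435 higher and 2280 lower, with the median change of all genes moving from 0.06 to -0.16 and -0.12 on the log2 scale. None of the 3295 called genes changed direction under the settings tried, where it was tested. The groups of all 3295 did not overlap, so only the changes of scaling could have turned a direction. Among the 1881 genes called higher, 466 had a mean under 1 FPKM in Dnmt3a-/- MEP and entered the test through their Bcor-/-Dnmt3a-/- values alone.

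**Figure D1:**
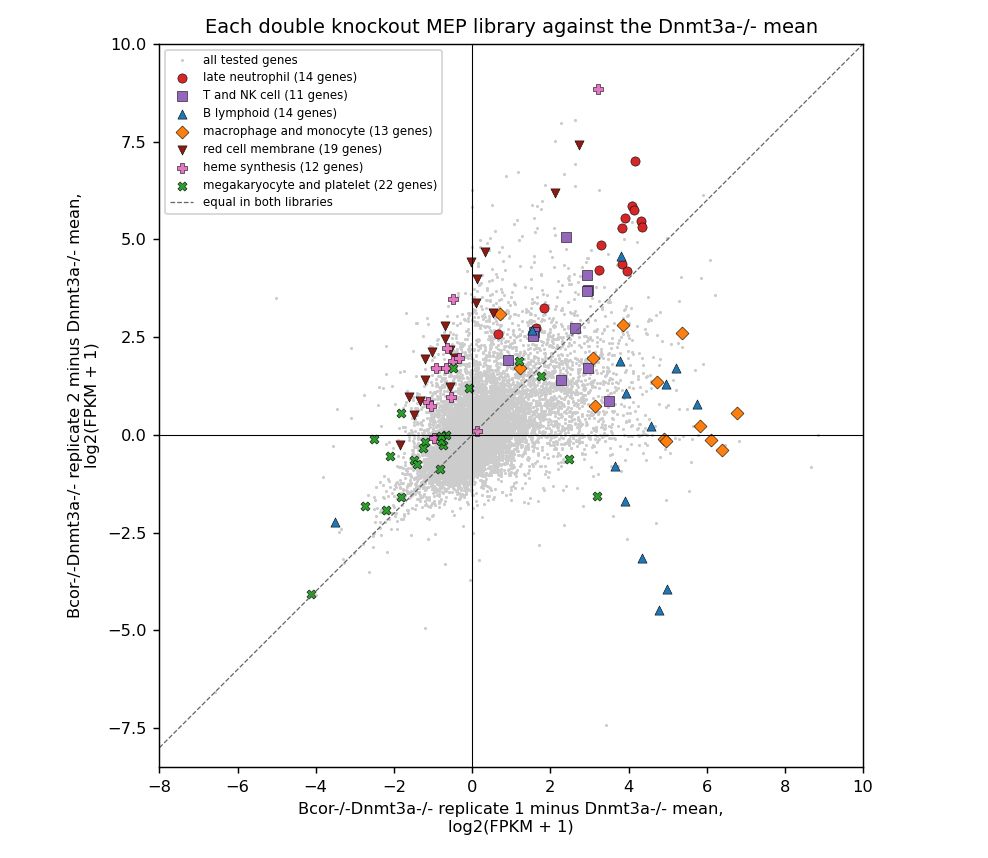
Each point is 1 of the 11177 tested genes, placed by its log2(FPKM + 1) difference from the mean of the 3 Dnmt3a-/- libraries in DKO1 (horizontal axis) and in DKO2 (vertical axis), with selected gene lists in colour. Late neutrophil genes lie high on both axes, most red cell membrane genes lie above 0 for DKO2 and below or near 0 for DKO1, and B lymphoid genes spread along the axis of DKO1.

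The 12 largest increases, ranked among genes whose groups did not overlap and whose adjusted p was below 0.05, included genes of maturing neutrophils and of phagocytes. Without the limit on adjusted p, Alas2, 2 globins and Slc4a1, described with the erythroid genes, also lie in this range. S100a8, which encodes a subunit of the calcium-binding protein calprotectin, was at 2988 FPKM in DKO1 and 6713 FPKM in DKO2. It was at 213, 117 and 136 FPKM in the Dnmt3a-/- libraries. Its partner S100a9 was at 2682 and 5302 FPKM against 192, 109 and 110.1 FPKM. Both double knockout libraries were far above every Dnmt3a-/- library for this pair, with a log2 fold change of 4.89 (SE 0.44, limma adjusted p = 0.0174) for S100a8 and 4.83 (SE 0.40, limma adjusted p = 0.0174) for S100a9. Chil3, a chitinase-like protein of neutrophils and macrophages, had the largest fold change of the genes ranked by the naming rule (log2 fold change 5.59, SE 0.86, limma adjusted p = 0.0218). It was at 102 FPKM in DKO1 and 729 FPKM in DKO2, against 7.08, 3.10 and 4.65 FPKM. Lcn2, which binds siderophores, was at 186 and 638 FPKM against 14.5, 10.7 and 6.31 FPKM. Camp, the precursor of an antimicrobial peptide of secondary granules, was at 384 and 1184 FPKM against 39.8, 12.8 and 17.5 FPKM. For Chil3, Lcn2 and Camp DKO2 was the higher library, as it was for the S100a8 and S100a9 pair. Cybb, the catalytic subunit of the phagocyte NADPH oxidase, was at 29.4 and 77.4 FPKM against 1.04, 0.659 and 0.693 FPKM (log2 fold change 4.77, SE 0.43, limma adjusted p = 0.0174). Its Dnmt3a-/- mean of 0.797 FPKM is under the minimum of 1, so Cybb entered the test through its double knockout values, and its call is a description. Ifitm6, an interferon-induced transmembrane protein, was at 50.4 and 163 FPKM against 3.69, 1.65 and 1.01 FPKM.

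The order of the double knockout libraries differed among the other genes at the top of the ranking. S100a6 was nearly the same in both double knockout libraries, at 193 and 199 FPKM, against 8.08, 3.88 and 4.1 FPKM (log2 fold change 5.02, SE 0.31, limma adjusted p = 0.0174). Gimap4, a GTPase of lymphocytes, was at 298 FPKM in DKO1 and 97.8 FPKM in DKO2 against 3.74, 2.06 and 5.03 FPKM (log2 fold change 5.28, SE 0.55, limma adjusted p = 0.0175). Lgmn, the lysosomal protease legumain, was at 136 and 37.3 FPKM against 1.80, 1.07 and 1.32 FPKM. DKO1 was the higher library for Gimap4 and Lgmn, and neither gene overlapped between the groups. Apol11b was at 20.6 and 77.6 FPKM and AA467197 at 106 and 16.4 FPKM, while both, like Cybb, had a mean under 1 FPKM in Dnmt3a-/- MEP, 0.280 FPKM for Apol11b and 0.521 FPKM for AA467197.

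The largest decreases held more closely between the double knockout libraries. Pf4, the platelet chemokine of megakaryocyte granules, was at 7.68 and 8.09 FPKM in DKO1 and DKO2. It was at 238, 100.5 and 143 FPKM in the Dnmt3a-/- libraries (log2 fold change -4.1, SE 0.37, limma adjusted p = 0.0174). Spon2, a secreted matrix protein, was at 0.865 and 0.724 FPKM against 23.7, 34.8 and 28 FPKM (log2 fold change -4.04, SE 0.21, limma adjusted p = 0.0174). In both genes DKO1 and DKO2 lay close together and more than 10 FPKM below every Dnmt3a-/- library. Khdrbs3, an RNA-binding protein, was at 0.104 and 0.217 FPKM against 10.6, 9.04 and 10.4 FPKM. Dntt, the terminal transferase of early lymphoid cells, was at 3.15 and 9.09 FPKM against 74.6, 36.6 and 36.4 FPKM. Ephx2, a soluble epoxide hydrolase, was at 1.42 and 0.910 FPKM against 12.1, 15.0 and 11.9 FPKM. The groups were apart in each of these. Sh2d4a (log2 fold change -3.07), Zg16 (-2.94), Prss50 (-2.87), Tceal3 (-2.58), Clstn3 (-2.56), Slc26a1 (-2.51) and Nags (-2.44), the latter the enzyme that makes N-acetylglutamate, complete the 12 largest decreases, all with a limma adjusted p of at most 0.0262.

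Promoter windows are shown for the S100a8 and S100a9 pair, which rose together, for Pf4, the largest decrease among called genes, and for Alas2, the called gene with the highest fold change before the limit on adjusted p. They are RefSeq windows on GRCm38.p6, from 250 bases before to 50 bases after the transcription start, each read 5′ to 3′ on its gene's strand. The RNA files were built on mm9, so these coordinates hold for the windows alone. Capitals mark every CG and the GATA letters AGATAA or TGATAA, or the CACCC letters CCACACCC, on either strand. The first 2 spellings differ in 1 letter and count as 1 motif, and neither shares its place with the CACCC letters. S100a8 lies at chr3:90668821-90669120 on the plus strand, S100a9 at chr3:90695672-90695971 on the minus strand, Pf4 at chr5:90772185-90772484 on the plus strand and Alas2 at chrX:150547167-150547466 on the plus strand.
S100a8: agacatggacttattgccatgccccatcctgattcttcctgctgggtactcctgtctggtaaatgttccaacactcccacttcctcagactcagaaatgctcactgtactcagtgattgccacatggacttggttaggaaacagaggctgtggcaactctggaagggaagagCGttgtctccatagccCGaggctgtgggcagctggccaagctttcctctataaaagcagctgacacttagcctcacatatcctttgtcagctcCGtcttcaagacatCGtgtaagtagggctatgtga
S100a9: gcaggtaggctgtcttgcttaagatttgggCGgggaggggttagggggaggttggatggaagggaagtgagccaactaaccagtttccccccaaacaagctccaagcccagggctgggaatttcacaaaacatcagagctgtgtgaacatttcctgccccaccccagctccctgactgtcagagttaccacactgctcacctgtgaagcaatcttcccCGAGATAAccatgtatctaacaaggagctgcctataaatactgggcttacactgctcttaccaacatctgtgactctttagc
Pf4: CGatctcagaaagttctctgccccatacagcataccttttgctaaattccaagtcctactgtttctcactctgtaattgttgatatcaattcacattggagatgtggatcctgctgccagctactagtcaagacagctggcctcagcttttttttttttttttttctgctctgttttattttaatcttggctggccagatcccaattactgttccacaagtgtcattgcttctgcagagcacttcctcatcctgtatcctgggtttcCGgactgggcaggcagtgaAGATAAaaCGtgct
Alas2: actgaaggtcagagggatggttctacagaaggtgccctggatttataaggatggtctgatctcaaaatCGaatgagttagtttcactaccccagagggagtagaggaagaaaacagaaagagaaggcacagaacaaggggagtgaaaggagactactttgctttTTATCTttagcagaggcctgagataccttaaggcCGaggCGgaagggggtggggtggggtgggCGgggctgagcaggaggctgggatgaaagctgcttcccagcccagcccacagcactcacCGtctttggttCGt
S100a8 held none of the searched motifs and 4 CG, S100a9 held the GATA letters and 2 CG, Pf4 the GATA letters and 3 CG, and Alas2 the GATA letters on the opposite strand and 6 CG. Among all 27025 genes with a window, 18.9% held the GATA letters and 3.58% the CACCC letters, and among the 8992 tested genes with a window 10.1% and 3.73% did. A match is a description of the letters and not of a bound site.

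**Figure D2:**
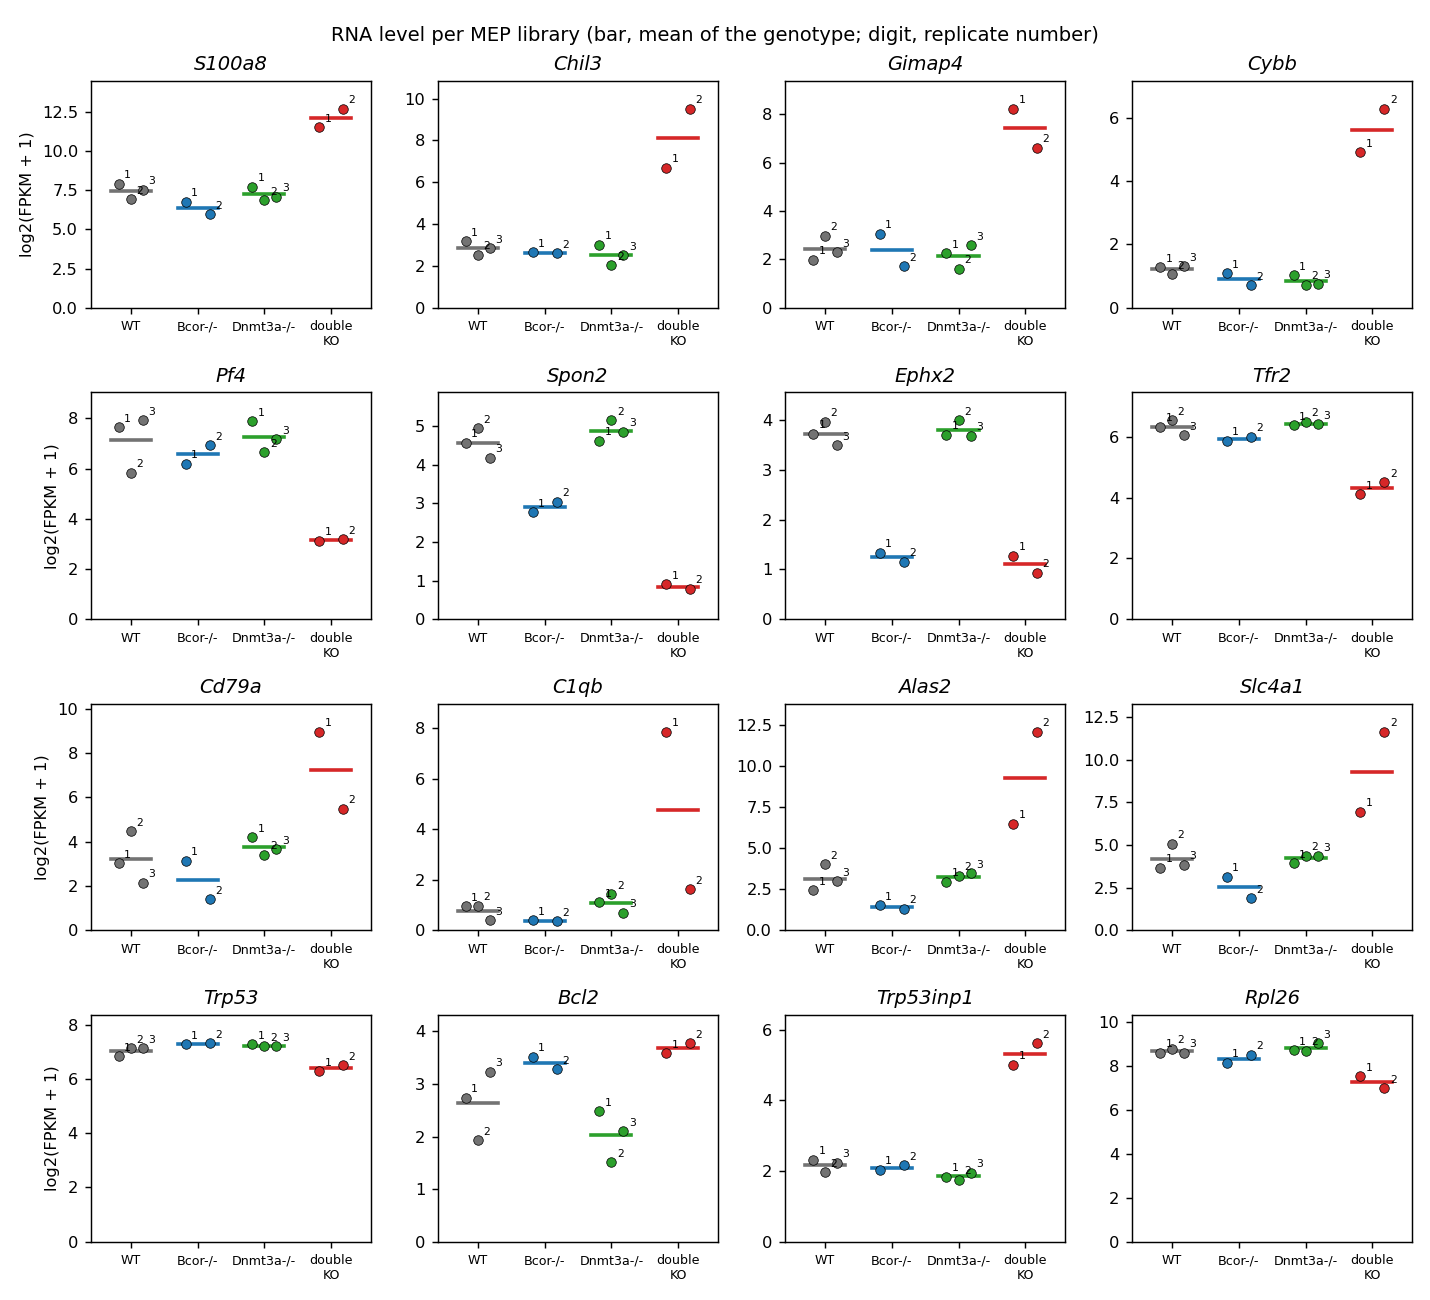
RNA level, as log2(FPKM + 1), of 16 genes in each of the 10 MEP libraries, grouped by genotype (double KO is Bcor-/-Dnmt3a-/-), with 1 point per library, its replicate number beside it and a bar at the mean. S100a8, Chil3, Gimap4 and Cybb are high in both Bcor-/-Dnmt3a-/- libraries, Pf4, Spon2, Ephx2 and Tfr2 are low in both, Cd79a and C1qb are highest in DKO1, and Alas2 and Slc4a1 are highest in DKO2.

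Neutrophil genes were then read as a list. Of 14 late neutrophil genes, 13 were called higher (92.9%, against 16.8% of all tested genes) and 0 lower, all 13 with an adjusted p under 0.05 (against 8.78%). The median log2 fold change was 4.33, against 0.06 over all tested genes. Retnlg, a resistin-like secreted protein, was at 138 and 164 FPKM against 10.1, 7.32 and 6.86 FPKM (log2 fold change 4.07, SE 0.20, limma adjusted p = 0.0174). Mmp8, the neutrophil collagenase, was at 21.9 and 32.5 FPKM against 0.372, 1.19 and 0.409 FPKM. The exception was Cebpe, the transcription factor of granulocyte maturation, at 2.51 and 12.1 FPKM against 2.07, 0.568 and 1.23 FPKM (limma adjusted p = 0.138). Mmp8 was 1 of 3 members with a mean under 1 FPKM in Dnmt3a-/- MEP, and of the other 11 members 10 were called. Summed over the 14 genes, FPKM was 7133 in DKO1, 16667 in DKO2 and 294 to 547 in the Dnmt3a-/- libraries, and none of the 14 was at 0 in any of the 5. Without DKO1 14 of the 14 rose and without DKO2 13 did.

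Genes of earlier granulocytes were then read. Of 11 primary granule genes 3 rose and 0 fell, 27.3% called against 29.5% of all tested genes. Their median log2 fold change of 0.19 was 0.70 without the first Dnmt3a-/- library and 0.58 without DKO1, and turned to -0.33 without the second Dnmt3a-/- library and to -0.13 without DKO2. The 3 were Igsf6 (log2 fold change 2.73), Ctsc, the protease that activates granule serine proteases (2.45), and the serpin Serpinb1a (2.25). Mpo, myeloperoxidase, was at 55.1 and 121 FPKM against 255, 52.7 and 128 FPKM, and Elane, neutrophil elastase, at 36.7 and 88.5 FPKM against 141, 36.5 and 80.2 FPKM. Both double knockout libraries lay inside the range of the Dnmt3a-/- libraries for Mpo, where the first Dnmt3a-/- library was highest. That library was also the highest of the 5 for Cd34, as given above.

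Most macrophage and B lymphoid genes separated DKO1 from DKO2. Of 13 macrophage and monocyte genes 7 were called higher (53.8%, against 16.8% of all tested genes) and 0 lower, and the median difference from the Dnmt3a-/- mean was 4.91 on the log2 scale in DKO1 and 0.74 in DKO2. C1qb, a complement subunit of tissue macrophages, was at 231 FPKM in DKO1, 2.10 FPKM in DKO2 and 1.15, 1.70 and 0.631 FPKM in the Dnmt3a-/- libraries. It was not called, since DKO2 lay near the Dnmt3a-/- libraries. Ly86, a partner of an innate immune receptor, was at 77.1 and 36.7 FPKM against 7.41, 2.94 and 3.62 FPKM (log2 fold change 3.34, SE 0.46, limma adjusted p = 0.019). Cd68, a lysosomal glycoprotein of macrophages, was at 42.1 and 19.0 FPKM against 5.21, 3.59 and 3.65 FPKM. Csf1r, the receptor of macrophage colony-stimulating factor, was at 69.9 and 9.49 FPKM against 1.33, 0.408 and 0.555 FPKM. These 3 were above the Dnmt3a-/- libraries in DKO1 and in DKO2, more so in DKO1, and Csf1r had a Dnmt3a-/- mean under 1 FPKM, as did 4 other members of the list. Ccr2 and Irf8 had the reverse order. Ccr2 was at 7.95 FPKM in DKO1 and 45.9 FPKM in DKO2 against 6.31, 3.40 and 4.15 FPKM. Irf8 was at 32.2 and 46.1 FPKM against 23.1, 9.49 and 10.4 FPKM. Without DKO2 11 of 13 macrophage genes rose, without DKO1 5 of 9, and without each of the Dnmt3a-/- libraries in turn 3 or 4. The summed FPKM of this list was 1044 in DKO1, 166 in DKO2 and 28.4 to 48.2 in the Dnmt3a-/- libraries. Of the 8 members with a Dnmt3a-/- mean of at least 1 FPKM 4 rose.

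B lymphoid genes showed the same split. Cd79a, the signalling subunit of the B cell receptor, was at 500.4 FPKM in DKO1, 43.7 FPKM in DKO2 and 17.5, 9.69 and 11.6 FPKM in the Dnmt3a-/- libraries. The surrogate light chain genes of pre-B cells went opposite ways. Igll1 was at 928 FPKM in DKO1, 0.536 FPKM in DKO2 and 28 to 38.0 FPKM in the Dnmt3a-/- libraries, and Vpreb1 at 793, 0.627 and 20.1 to 27.0 FPKM. DKO1 was thus the highest and DKO2 the lowest of the 5 libraries for Igll1 and Vpreb1. Ms4a1, which encodes the mature B cell marker CD20, was at 14.1 and 24.7 FPKM against 0.270, 0 and 0 FPKM (log2 fold change 4.19). Cd79b rose, with a log2 fold change of 2.84, and Blk was also called, with 2.11. Ms4a1 and Blk had means under 1 FPKM in Dnmt3a-/- MEP and entered the test through the double knockout. Of 14 B lymphoid genes 6 were called higher (42.9%, against 16.8% of all tested genes), these 2 among them, and 1 lower (7.14%, against 12.7%), the latter Dntt. Of the 11 with a Dnmt3a-/- mean of at least 1 FPKM 4 rose and 1 fell. Without DKO2 the list had 13 higher and 1 lower, without DKO1 6 higher and 5 lower of 13 tested, and without each Dnmt3a-/- library in turn 3 or 4 higher and 1 lower. Summed FPKM was 3466 in DKO1, 172 in DKO2 and 140.1 to 215 in the Dnmt3a-/- libraries, so that DKO2 lay within the range of the controls.

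T and NK cell genes were higher in both. Of 13 listed, 11 were tested, of which 6 had a mean under 1 FPKM in Dnmt3a-/- MEP and entered through their Bcor-/-Dnmt3a-/- values. The 5 others rose. With the 6 included, 11 of 11 were called higher (100%, against 16.8% of all tested genes). Lck, the kinase of T cell receptor signalling, was at 33.5 and 36.2 FPKM against 5.49, 3.34 and 5.32 FPKM (log2 fold change 2.67, SE 0.23, limma adjusted p = 0.0174). Ncr1, an activating receptor of NK cells, was at 22.0 and 37.9 FPKM against 1.18, 1.99 and 3.18 FPKM (log2 fold change 3.31, SE 0.38, limma adjusted p = 0.0176). Klrb1c, which encodes NK1.1, rose as well (3.33). Cd2 (3.51) was 1 of the 6 that entered through the double knockout, with a Dnmt3a-/- mean of 0.878 FPKM. Summed FPKM was 145 and 256 in DKO1 and DKO2 and 10.3 to 18.4 in the Dnmt3a-/- libraries. Of 7 MHC class II genes 3 rose (42.9%, against 16.8% of all tested genes), among them Cd74, the invariant chain, at 503 and 262 FPKM against 133, 61.3 and 82.2 FPKM. H2-Eb1 (log2 fold change 1.86) and H2-Aa (1.64) were the others, and the count was 1 with a separate variance per genotype, 1 without DKO1, 1 without the second or the third Dnmt3a-/- library and 6 without DKO2. Of 8 tested basophil, mast cell and eosinophil genes Hdc, histidine decarboxylase, rose (1.19). Il5ra (2.66) and Prss34 (2.60) were called too, with means under 1 FPKM in Dnmt3a-/- MEP. With them, 3 of the 8 were called higher (37.5%, against 16.8% of all tested genes). The part of neutrophils, macrophages, B, T or NK cells in the MEP gate in these increases was not tested.

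**Figure D3:**
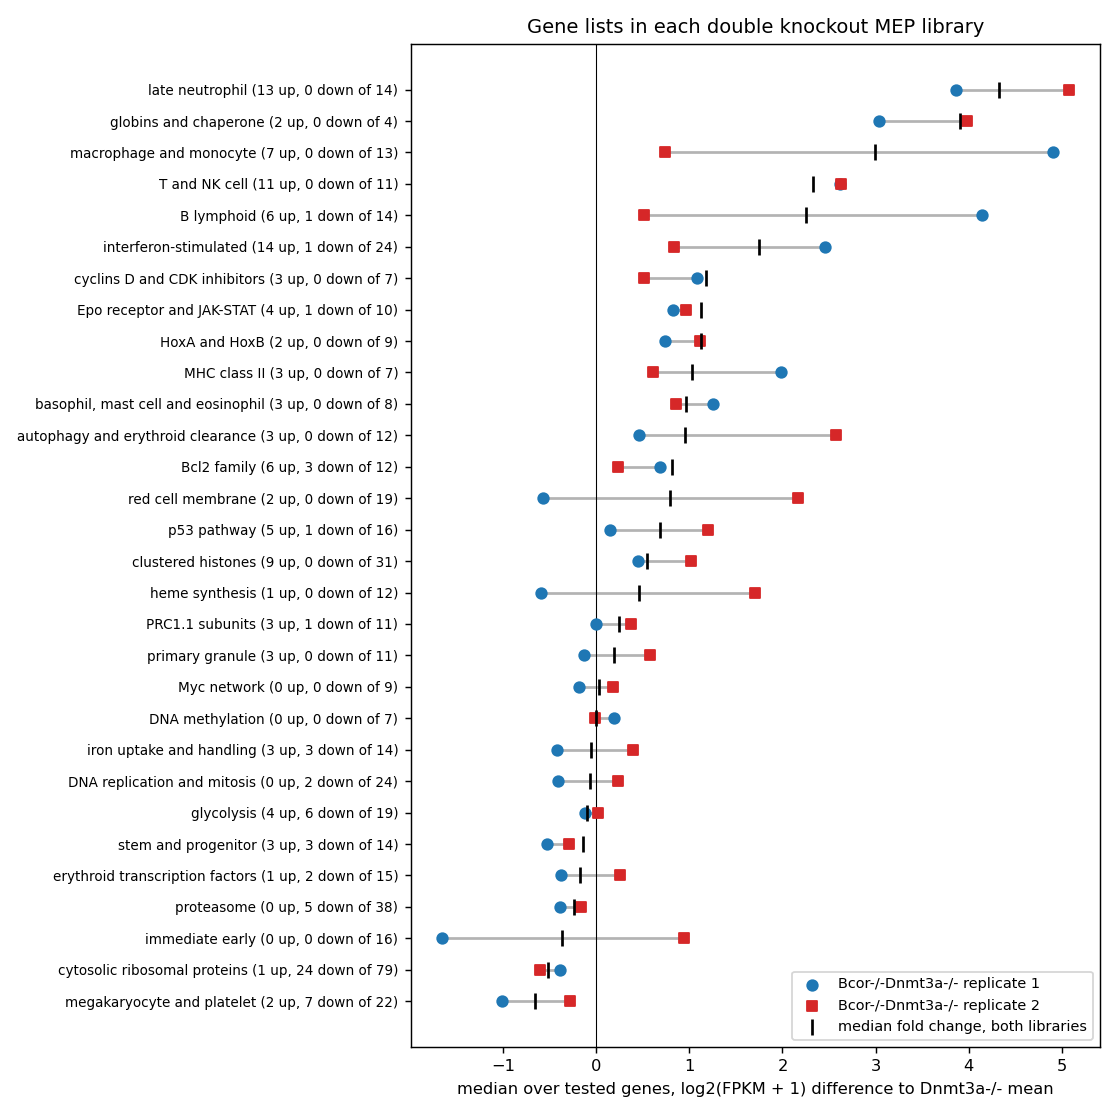
Median log2(FPKM + 1) difference from the Dnmt3a-/- mean over the tested members of each of the 30 gene lists, with DKO1 and DKO2 as separate points. Late neutrophil and T and NK cell lists lie high in both libraries, macrophage and B lymphoid lists are high in DKO1, red cell membrane and heme lists are positive in DKO2 and negative in DKO1, and ribosomal protein genes are below 0 in both.

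Erythroid genes were ordered by role, from regulators to products. Of 15 erythroid transcription factors 1 rose (6.67%, against 16.8% of all tested genes) and 2 fell (13.3%, against 12.7%). Ldb1, the scaffold of the Gata1 and Tal1 complex, was at 95.8 and 104 FPKM in DKO1 and DKO2 against 181, 198 and 175 FPKM (log2 fold change -0.88, SE 0.12, limma adjusted p = 0.0189). Gfi1b, a repressor needed for both lineages of MEP, was at 49.8 and 129 FPKM against 186, 199 and 182 FPKM (log2 fold change -1.22, limma adjusted p = 0.0941). E2f2, a cell cycle factor of terminal erythropoiesis, rose with a log2 fold change of 2.53 and was at 49.1 and 515 FPKM against 23.4, 30 and 27.8 FPKM. For Gata1 the double knockout libraries lay on both sides of the controls. It was at 71.4 FPKM in DKO1, 239 FPKM in DKO2 and 179.9, 215 and 208 FPKM in the Dnmt3a-/- libraries (log2 fold change -0.61, SE 0.51, limma adjusted p = 0.42). Klf1 was at 70.9 FPKM in DKO1, below the controls at 194 to 226 FPKM, and at 219 FPKM in DKO2, inside their range. Gata2, which acts before Gata1, was at 6.98 and 30.2 FPKM against 53.8, 27.0 and 30.5 FPKM (log2 fold change -1.21, SE 0.65, limma adjusted p = 0.235), with DKO2 inside the range of the controls. Without DKO1 5 of the 15 factors rose and 3 fell, without DKO2 1 rose and 7 fell, and without each Dnmt3a-/- library in turn 1 was called, lower.

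In the list of erythropoietin receptor and JAK-STAT genes Stat5a fell, and Lyn and feedback inhibitors rose. Stat5a, a transcription factor activated by the erythropoietin receptor, was at 27.3 and 27.5 FPKM against 61.6, 60.9 and 59.0 FPKM (log2 fold change -1.12, SE 0.11, limma adjusted p = 0.0174). The libraries of each genotype lay close together and the groups were far apart. The kinase Lyn was at 51.9 and 35.8 FPKM against 14.7, 10.5 and 10.5 FPKM (log2 fold change 1.79, SE 0.24, limma adjusted p = 0.0186). The inhibitors Socs3 (log2 fold change 2.21) and Socs2 (3.81, limma adjusted p = 0.0512) were higher, Socs2 mainly in DKO1, where it was at 69.8 FPKM against 7.08 FPKM in DKO2. The Dnmt3a-/- mean of Socs2, 0.753 FPKM, was under the minimum. Epor itself was at 38.9 and 95.6 FPKM against 86.6, 119 and 108 FPKM and did not pass the test. Of the 10 tested genes of this list 5 were called, 50% against 29.5% of all tested genes, 4 higher and 1 lower. Their median log2 fold change was 1.13, and 0.62 without the second Dnmt3a-/- library.

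Iron genes were called in both directions, 3 higher and 3 lower of 14, or 21.4% each way against 16.8% higher and 12.7% lower over all tested genes. Tfr2, the second transferrin receptor and a partner of the erythropoietin receptor, was at 16.5 and 21.9 FPKM against 83.7, 90.2 and 85.1 FPKM (log2 fold change -2.13, SE 0.16, limma adjusted p = 0.0174). Steap3, the ferrireductase of endosomes, was at 41.7 and 34.3 FPKM against 94.6, 116 and 109 FPKM (log2 fold change -1.46, SE 0.16, limma adjusted p = 0.0175). Aco1, which encodes an iron-sensing RNA-binding protein, was at 16.7 and 17.6 FPKM against 27.9, 34.4 and 34.4 FPKM. DKO1 and DKO2 lay together and below the controls in these 3 genes. Fam132b, which encodes erythroferrone, the erythroid hormone that lowers hepcidin, rose from 1.28, 1.09 and 1.20 FPKM to 10.5 and 57.9 FPKM (log2 fold change 3.57, SE 0.69, limma adjusted p = 0.0309). Without DKO1 6 iron genes rose and 4 fell, without DKO2 3 rose and 7 fell.

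The products of late erythroid cells set DKO2 apart. Hba-a1, an alpha globin, was at 55204 FPKM in DKO2, 1055 FPKM in DKO1 and 198, 246 and 216 FPKM in the Dnmt3a-/- libraries (log2 fold change 5.12, SE 1.64, limma adjusted p = 0.0887). Alas2, the first enzyme of heme synthesis in red cells, was at 4392 FPKM in DKO2, 88.3 FPKM in DKO1 and 6.77, 9.03 and 10.2 FPKM in the controls (log2 fold change 6.03, SE 1.62, limma adjusted p = 0.0604). Slc4a1, the band 3 anion exchanger of the red cell membrane, was at 3195, 123 and 14.4 to 19.6 FPKM in the same order. Both double knockout libraries were above the controls for these 3, but by very unequal amounts, and an adjusted p under 0.05 was not reached. Hbb-b1, a beta globin, was listed at 0 in DKO2 and was at 1854 FPKM in DKO1 against 142, 188 and 187 FPKM, while its near-identical neighbour Hbb-b2 was at 30050.4 FPKM in DKO2 and 705 FPKM in DKO1, so the values of this pair are uncertain. Over whole lists the libraries went opposite ways. Red cell membrane genes had a median difference of -0.57 in DKO1 and 2.16 in DKO2 on the log2 scale, and 7 of 19 lay more than 1.5-fold below the controls in DKO1 and more than 1.5-fold above them in DKO2. Heme synthesis genes had medians of -0.59 and 1.71, with 5 of 12 on such opposite sides. Slc4a1 and the actin-capping Tmod1 were the 2 of 19 membrane genes called, and Alas2 the 1 of 12 heme genes, or 10.5% and 8.33% against 29.5% of all tested genes. Without DKO1 17 of 19 membrane genes and 10 of 12 heme genes rose and 0 fell, and without DKO2 2 rose and 9 fell, and 1 rose and 6 fell. Of 12 genes of autophagy and organelle clearance 3 rose (25%, against 16.8% of all tested genes), the ubiquitin-conjugating enzyme Ube2h (log2 fold change 3.35), the nuclear export receptor Xpo7 (4.14) and Map1lc3b (1.0), each with a higher value in DKO2 than in DKO1. Without DKO1 9 of these 12 rose, without DKO2 4 rose and 3 fell, and without each Dnmt3a-/- library 1 rose.

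Megakaryocyte genes were called lower more often than higher. Of 22 tested of 24, 7 were called lower (31.8%, against 12.7% of all tested genes) and 2 higher (9.09%, against 16.8%), with a median log2 fold change of -0.66, and 3 of the decreases had an adjusted p under 0.05. With a separate variance per genotype 2 were lower and 0 higher. Sdpr was at 0.248 and 1.36 FPKM against 11.5, 4.66 and 7.26 FPKM (log2 fold change -2.28, SE 0.46, limma adjusted p = 0.033). Treml1, a receptor of platelet granules, was at 0.186 and 0.448 FPKM against 7.99, 3.27 and 3.34 FPKM (log2 fold change -2.07, SE 0.42, limma adjusted p = 0.0342). The transcription factor Fli1 went the other way, at 27.1 and 22.6 FPKM against 12, 5.48 and 5.85 FPKM (log2 fold change 1.63, SE 0.35, limma adjusted p = 0.0381), and it is also expressed outside the megakaryocyte lineage. Itga2b, which encodes CD41, was at 5.47 and 33.4 FPKM against 60.8, 24 and 32.1 FPKM and was not called. The summed FPKM of the list was 177 and 236 in DKO1 and DKO2 and 235 to 531 in the controls, with the first Dnmt3a-/- library highest. Without DKO2 12 fell and 3 rose, and without each of the other libraries 5 or 6 fell and 2 or 3 rose, and the median was -0.25 without DKO1 and -1.20 without DKO2.

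Of 14 tested stem and progenitor genes 3 were called higher and 3 lower, again 21.4% each way against 16.8% and 12.7% over all tested genes. Of the 3 higher, 1 had a mean under 1 FPKM in Dnmt3a-/- MEP and entered the test through the double knockout. Of the 13 other members 2 rose and 3 fell. Besides Kit, Eng, a co-receptor for TGF-beta, was at 28.1 and 20.0 FPKM against 62.1, 68.2 and 62.0 FPKM (log2 fold change -1.40, SE 0.18, limma adjusted p = 0.018). The niche factor Angpt1 had a log2 fold change of -1.79 and the LIM protein Lmo4 of 1.02. Without DKO1 1 of the list rose, with a separate variance per genotype 1, without the third Dnmt3a-/- library 1, and without DKO2 5 rose and 5 fell. HoxA and HoxB genes were low. Of 9 tested of 17, 7 had a mean under 1 FPKM in Dnmt3a-/- MEP, and Hoxb3 (3.62 and 1.80 FPKM against 0.216 to 0.288 FPKM) and Hoxa10 (2.33 and 3.66 FPKM against 1.28, 0.304 and 0.234 FPKM) were called higher, 22.2% against 16.8% of all tested genes. Hoxb3 and Hoxa10 are both among the 7 and entered the test through the double knockout. The count of 2 became 1 without the second or the third Dnmt3a-/- library and 1 with a separate variance per genotype. With the replicate number as a block it was 0. Hoxb7 and Hoxb8 were seen in DKO1, at 23.1 and 21.2 FPKM, and were listed at 0 in DKO2 and in the 3 controls.

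Interferon-stimulated genes were mostly higher in both double knockout libraries. Of 24, 14 were called higher (58.3%, against 16.8% of all tested genes) and 1 lower (4.17%, against 12.7%), 8 and 1 of them with an adjusted p under 0.05, and the median log2 fold change was 1.74. Of the 17 members with a mean of at least 1 FPKM in Dnmt3a-/- MEP, 11 rose and 1 fell. Irf7, the regulator of type I interferon, was at 65.7 and 28.9 FPKM against 5.71, 6.63 and 5.20 FPKM (log2 fold change 2.71, SE 0.36, limma adjusted p = 0.0185). Oasl2 rose as well (2.18). Zbp1, a sensor of Z-form nucleic acids, was at 12.7 and 8.85 FPKM against 0.558, 0.489 and 0.678 FPKM (log2 fold change 2.89), and Ifit1 had a log2 fold change of 2.72. Zbp1 and Ifit1 had Dnmt3a-/- means under 1 FPKM and entered the test through the double knockout. DKO1 was higher than DKO2 in these 4 genes, and Isg15 had the reverse order, at 31.7 and 430.3 FPKM against 3.49 to 4.93 FPKM. Ifitm2 fell, at 164 and 157 FPKM against 308, 252 and 258 FPKM (log2 fold change -0.76, SE 0.14, limma adjusted p = 0.0274). Without DKO2 19 rose and without DKO1 11, and without each Dnmt3a-/- library in turn 9 to 11, with 1 lower each time. The Cre transgene of both groups is itself driven by an interferon-inducible promoter, the labels give no time between its induction and sorting, and its part in these values was not tested.

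Among subunits of PRC1.1 apart from Bcor, Ring1, a ubiquitin ligase of the complex, was at 10.1 and 12.1 FPKM against 20.8, 23.6 and 18.6 FPKM (log2 fold change -0.86, SE 0.17, limma adjusted p = 0.0323). The other ligase, Rnf2, was at 41.5 and 24.1 FPKM against 18.1, 17.9 and 19.3 FPKM (log2 fold change 0.75, limma adjusted p = 0.096). The Ring1-binding protein Yaf2 (0.66) and Bcl6, a repressor that recruits Bcor (1.5), were also called higher. Of the 11 genes of this list, which holds Bcor and Bcl6 as well, 4 were called, 3 higher and 1 lower. This is 36.4%, against 29.5% of all tested genes. Given a variance of its own for each genotype, the fit had 1 higher. After quantile normalization or median centring the count became 1 higher and 2 lower, without the second or the third Dnmt3a-/- library 1 and 1, and after quantile normalization the list's median turned from 0.24 to -0.10. Of 7 tested DNA methylation genes, methyltransferases and Tet dioxygenases among them, limma called 0 and none had an unadjusted p under 0.05. Of 9 Myc network genes it called 0 as well, again with none at an unadjusted p under 0.05, while without DKO1 3 rose and 1 fell and without DKO2 2 rose.

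Of 16 p53 pathway genes 5 rose and 1 fell, 37.5% called against 29.5% of all tested genes. Trp53 was at 76.5 and 90.3 FPKM against 154, 146 and 147 FPKM (log2 fold change -0.83, SE 0.13, limma adjusted p = 0.0208). Trp53inp1, a p53 target that promotes cell death and autophagy, was at 31.3 and 48.5 FPKM against 2.59, 2.37 and 2.88 FPKM (log2 fold change 3.47, SE 0.23, limma adjusted p = 0.0174). Mdm4, an inhibitor of p53, was at 55.5 and 51.2 FPKM against 33.5, 29.3 and 30.6 FPKM (log2 fold change 0.76, SE 0.13, limma adjusted p = 0.024). The groups were well apart in these 3 genes. Mdm2, the ubiquitin ligase of p53, was at 23.6 and 54.0 FPKM against 20.7, 22.0 and 20.6 FPKM and did not pass the test (log2 fold change 0.74, SE 0.35, limma adjusted p = 0.196). Pmaip1, which encodes the BH3-only protein Noxa, rose with a log2 fold change of 1.57 (limma adjusted p = 0.0578). Without DKO1 10 rose and 1 fell, with a separate variance per genotype 2 rose and 1 fell, without DKO2 4 and 4, and without the second or the third Dnmt3a-/- library 3 and 1.

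Regulators of mitochondrial apoptosis also moved in both directions. Bcl2, an inhibitor of apoptosis, was at 11 and 12.8 FPKM against 4.58, 1.85 and 3.28 FPKM (log2 fold change 1.66, SE 0.33, limma adjusted p = 0.0321). Bid and Bak1, which promote permeabilisation of the mitochondrial membrane, fell. Bid was at 29.0 and 24.9 FPKM against 43.3, 48.2 and 46.3 FPKM (log2 fold change -0.75, SE 0.13, limma adjusted p = 0.0259). Bak1 was at 45.4 and 38.8 FPKM against 66.9, 69.6 and 73.0 FPKM (log2 fold change -0.72, SE 0.13, limma adjusted p = 0.0261). Bcl2a1b, an inhibitor with close copies in the mouse genome among which reads may be split, had a log2 fold change of 2.4 and a Dnmt3a-/- mean under 1 FPKM. Bcl2l1, which encodes Bcl-xL, was at 22.9 and 296 FPKM against 6.45 to 6.64 FPKM (limma adjusted p = 0.0767). Of 12 tested Bcl2 family genes 6 were called higher (50%, against 16.8% of all tested genes) and 3 lower (25%, against 12.7%). Among the 12, 3 had a mean under 1 FPKM in Dnmt3a-/- MEP and entered the test through the double knockout, 2 of them called higher. Of the 9 others 4 rose and 3 fell. Parp1, a DNA damage sensor, was at 171 FPKM in DKO1 and 73.0 FPKM in DKO2, on either side of the controls at 148, 143 and 145 FPKM.

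Genes of protein synthesis and protein turnover differed by smaller amounts. Of 79 tested cytosolic ribosomal protein genes 24 fell (30.4%, against 12.7% of all tested genes) and 1 rose, 18 of the decreases with an adjusted p under 0.05, and the median log2 fold change was -0.52. Both double knockout libraries were below every control in 56 of the 79 (70.9%), against 27.2% of all tested genes. Rpl14 was at 281 and 303 FPKM against 536, 542 and 528 FPKM (log2 fold change -0.87, SE 0.11, limma adjusted p = 0.018). Rpl26, whose product also promotes translation of p53 mRNA, was at 184 and 125 FPKM against 422, 411 and 528 FPKM (log2 fold change -1.56, SE 0.22, limma adjusted p = 0.0192). Rps23 (-1.10) and Rps27a (-1.19) were at 7.87 to 27.4 FPKM in the 5 libraries, and reads of ribosomal protein genes can be lost to processed pseudogenes. Quantile normalization gave 36 lower and median centring 46, and without DKO1 40 were lower. Of 38 proteasome genes 5 fell and 0 rose. The 5 are 13.2%, near the 12.7% of all tested genes called lower, and the named members, Psmb5, Psmd7, Psmb3 and Psmd3, had log2 fold changes between -0.61 and -0.76. Median centring gave 11 lower proteasome genes, leaving out DKO2 gave 12 lower and 3 higher, and leaving out the third Dnmt3a-/- library 3 lower.

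**Figure D4:**
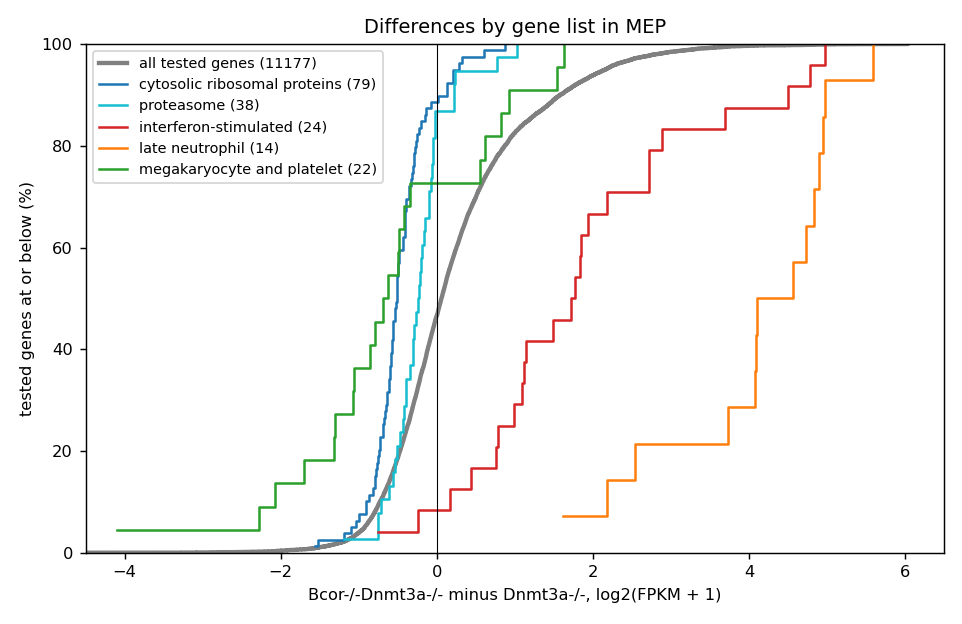
Cumulative share of genes (vertical axis) by log2 fold change of Bcor-/-Dnmt3a-/- against Dnmt3a-/- MEP (horizontal axis) for all tested genes and for 5 gene lists. The ribosomal protein and proteasome curves lie slightly left of the curve of all genes over most of its range, the megakaryocyte curve lies left of it over its lower part, and the interferon-stimulated and late neutrophil curves lie to the right, with medians of 1.74 and 4.33.

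Of 19 glycolysis genes 6 fell and 4 rose, 31.6% and 21.1% against 12.7% and 16.8% of all tested genes. Pfkl, the liver-type phosphofructokinase, was at 17.6 and 15.9 FPKM against 36.5, 40.0 and 37.2 FPKM (log2 fold change -1.13, SE 0.13, limma adjusted p = 0.0176). Tpi1 was at 140.5 and 151 FPKM against 286, 299.7 and 315 FPKM, Ldha, lactate dehydrogenase A, at 362 and 337 FPKM against 629, 632 and 694 FPKM, and Pklr, the pyruvate kinase of red cells and liver, at 59.7 and 87.6 FPKM against 191, 247 and 189.6 FPKM. In these 4 genes both double knockout libraries were below every control. Pkm went the other way, at 148 and 97.3 FPKM against 56.0, 18.3 and 26.2 FPKM. Bpgm had the highest log2 fold change of the list (3.95), mainly through DKO2. It was at 35.9 FPKM in DKO1 and 1710 FPKM in DKO2 against 14.6, 15.1 and 16.1 FPKM. Without DKO1 7 of the list rose and 6 fell, and with a separate variance per genotype 1 rose. Gapdh was listed at 0.856 to 1.57 FPKM in the 5 libraries and did not differ beyond the test. It was far below Tpi1 and Ldha, so its values are uncertain. Of 24 genes of DNA replication and mitosis 0 were called higher and 2 lower, 8.33% called against 29.5% of all tested genes. These were Mcm5 (log2 fold change -0.64) and Mcm7 (-0.66), both subunits of the replicative helicase. Mki67 was at 172 and 750.2 FPKM against 158 to 194 FPKM and was not called, and leaving out DKO1 gave 7 higher and 0 lower while leaving out DKO2 gave 0 higher and 8 lower of the 24. Inhibitors of cyclin-dependent kinases rose, Cdkn2c (1.18, limma adjusted p = 0.0237), Cdkn1b (2.11) and Cdkn2d (1.82). They were 3 of the 7 tested cyclin D and inhibitor genes (42.9%, against 16.8% of all tested genes). Of 31 tested clustered histone genes 7 had a mean under 1 FPKM in Dnmt3a-/- MEP and entered the test through the double knockout, 3 of them called higher. Of the 24 others 6 rose. With the 7 included, 9 of the 31 were called higher and 0 lower, 29.0% called against 29.5% of all tested genes, Hist1h1b with the smallest p (log2 fold change 1.05). This count was 0 with a separate variance per genotype, 1 after quantile normalization and 3 after median centring, and leaving out 1 library gave 2 to 4 (a Dnmt3a-/- library), 16 (DKO1) or 5, with 5 lower (DKO2). Of 16 immediate early genes limma called 0, none with an unadjusted p under 0.05, with medians of -1.65 in DKO1 and 0.94 in DKO2. Without DKO1 6 of them rose, and without DKO2 12 fell.

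The gap between DKO1 and DKO2 was itself counted over all genes. In 2092 tested genes one double knockout library lay above and the other below the whole range of the controls, and in 344 of these both differed more than 1.5-fold from the control mean. DKO1 was the higher in 146 and DKO2 in 198. The 6 widest gaps were Hbb-b1, Igll1 and Vpreb1, given above, Rnase12 (719 FPKM in DKO1 and 0 in DKO2), Mir8116 (456 and 0 FPKM) and Mir703 (0 and 370.02 FPKM), and the last also varied among the controls, at 0, 171 and 199 FPKM. These are gene-level values of poly-A libraries, so those of the short microRNA loci are uncertain. No call was made for these 6.

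The targeting of Bcor was then read in MEP with unmodified Dnmt3a. Bcor-/- MEP (n = 2) were compared with WT MEP (n = 3), libraries that are not part of the first comparison. The contrast was taken from a fit of all 10 MEP libraries, so its variance also holds the gap between DKO1 and DKO2. There 308 of the 11177 genes were called, 2.76%, and 7 after adjustment, against 29.5% in the Dnmt3a-/- background. The 29.5% came from the fit of 5 libraries. The fit of all 10 called 3966 genes in that background, 3417 after adjustment. Both lists shared 162 genes, 4.92% of the first list and 52.6% of the second, and 141 of them had the same direction, 60 higher and 81 lower in both. The other 21 had opposite directions. Some genes changed by similar amounts in both. Ephx2 was at 1.52 and 1.22 FPKM in Bcor-/- MEP and at 12.2, 14.6 and 10.2 FPKM in WT MEP (log2 fold change -2.48), against -2.69 in the Dnmt3a-/- background, a difference of -0.21 (limma adjusted p = 0.621). Tceal3 fell by 2.60 on the log2 scale in Bcor-/- MEP and by 2.58 in Bcor-/-Dnmt3a-/- MEP. Lmo4 rose in both as well, by 1.22 and 1.02 (log2). Hoxa10, at 6.51 and 7.97 FPKM in Bcor-/- MEP, was higher there than in DKO1 and DKO2, and 5 of the 9 Hox genes were called higher in Bcor-/- against WT MEP.

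The difference of these 2 changes, from Dnmt3a-/- to Bcor-/-Dnmt3a-/- and from WT to Bcor-/-, was tested in 1 fit of the 10 MEP libraries. It called 3044 genes, 27.2% of those tested, and 1720 after adjustment, and 2570 were also called in the main comparison. With a separate variance per genotype 2206 were called and 43 after adjustment. S100a8 had a difference of 5.99 (log2, SE 0.62, limma adjusted p = 0.00305), since it was at 108 and 61.7 FPKM in Bcor-/- MEP and 244, 120.3 and 186 FPKM in WT MEP. Retnlg was at 0.662 and 1.47 FPKM in Bcor-/- and 5.70, 9.53 and 7.81 FPKM in WT MEP, a fall of 2.07 on the log2 scale where the Dnmt3a-/- background gave a rise of 4.07. Of the 14 late neutrophil genes 13 were called for the difference, and 4 were called lower and 0 higher in Bcor-/- against WT MEP. Spon2 fell in both backgrounds, by 1.66 and 4.04, with a difference of -2.38 (limma adjusted p = 0.00521). Khdrbs3 and Clstn3 also fell in both, Khdrbs3 by 1.02 and 3.24 and Clstn3 by 0.84 and 2.56. Pf4 was at 72.5 and 122 FPKM in Bcor-/- and 199, 56.5 and 243 FPKM in WT MEP, so its groups overlapped there. Trp53 was at 154 and 159 FPKM in Bcor-/- MEP and 114, 139 and 139 FPKM in WT MEP, and the difference was -1.10 (limma adjusted p = 0.00676). Bcl2 was at 10.5 and 8.70 FPKM in Bcor-/- MEP and 5.69, 2.81 and 8.40 FPKM in WT MEP, above every WT library as in the other background, and its difference of 0.89 did not pass (limma adjusted p = 0.286).

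**Figure D5:**
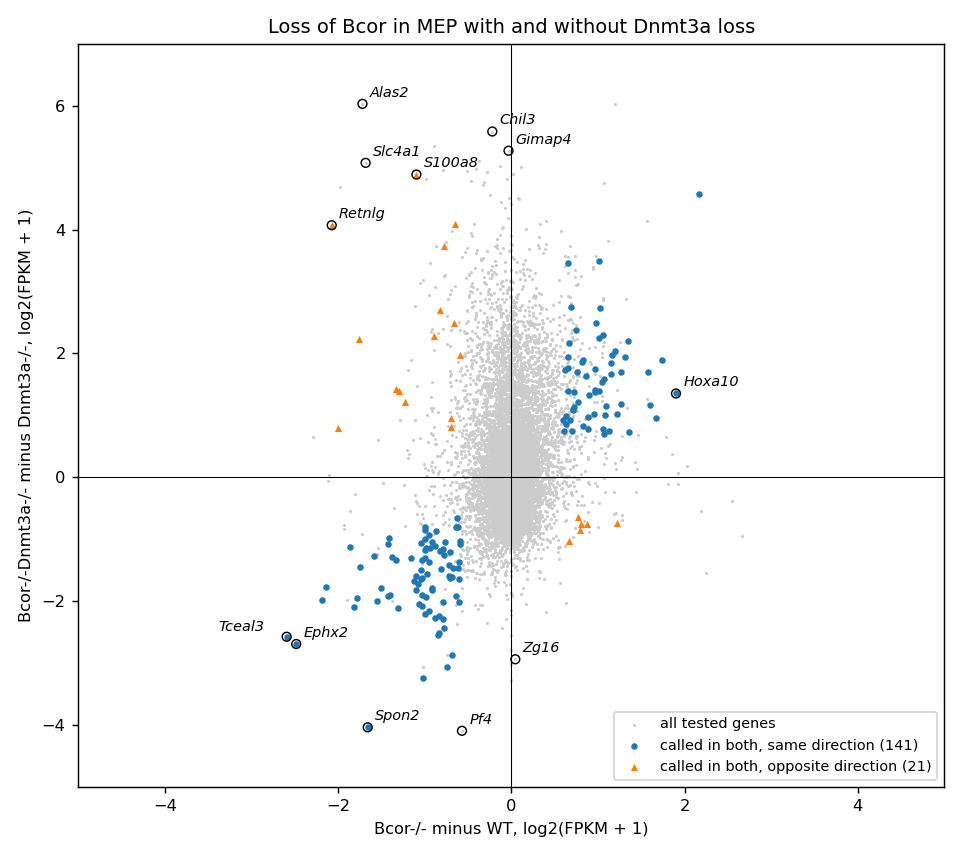
Log2 fold change of Bcor-/- against WT MEP (horizontal axis) and of Bcor-/-Dnmt3a-/- against Dnmt3a-/- MEP (vertical axis) for the tested genes, with the 141 genes called in both with the same direction and the 21 with opposite directions in colour. The vertical spread is wider than the horizontal, Ephx2 and Tceal3 lie near the line of equal change, and 2 genes fall outside the axes.

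The same mice gave LSK libraries, and the effect of the double knockout against Dnmt3a-/- was compared between both cell types by the difference within each mouse. Of 11000 genes tested in both, 3341 (30.4%) were called for the difference and 1284 after adjustment. S100a8 was at 3340.1 and 2493 FPKM in Bcor-/-Dnmt3a-/- LSK and 522, 814 and 665 FPKM in Dnmt3a-/- LSK. The double knockout level in LSK was near that in MEP for DKO1's mouse and lower than it for DKO2's, the Dnmt3a-/- level was higher in LSK, and the effect was smaller there by 2.76 (log2). Gimap4 was also higher in double knockout LSK, at 318 and 204 FPKM against 4.65, 5.81 and 5.15 FPKM. The gap between DKO1 and DKO2 was seen in LSK for C1qb and was narrower there for Cd79a. C1qb was at 409.9 FPKM in the LSK library of DKO1's mouse and 7.30 FPKM in that of DKO2's mouse, the same order as in MEP, and Cd79a was at 736 and 466 FPKM. Gata1 was at 44.1 and 43.5 FPKM in double knockout LSK and at 11.4, 13.7 and 14.0 FPKM in Dnmt3a-/- LSK, where MEP had no called change, and the difference of both effects was 2.29. The limma adjusted p of these differences passed 0.05 for S100a8 and Gata1, and with a separate variance per genotype 5 genes in all passed it. S100a8 was chosen by its change in MEP, which is part of this difference, so its value is a description. Trp53inp1 was at 36.9 and 58.8 FPKM against 14.0, 16.4 and 15.3 FPKM in LSK, and Pf4 at 4.08 and 19.4 FPKM against 62.2, 64.7 and 68.0 FPKM.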

How the data were processed

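RNA of sorted LSK and MEP was measured in 20 libraries of 4 genotypes. For each cell type the authors deposited the FPKM of all libraries in 1 table, on mm9. The submitters' processing notes name STAR 2.5.1b, SAMtools 1.9 and Cufflinks 2.2.1. How the FPKM were scaled between libraries, and whether counting used strand, is not given in the sources used here. Groups came from the sample titles. Genes that averaged 1 FPKM or more across the 5 libraries were tested as log2(FPKM + 1), pseudocount 1, with limma 3.58.1 (moderated test with a mean-variance trend, two-sided, R 4.3.3) and called at p under 0.05 and fold above 1.5, beside Benjamini-Hochberg adjusted p-values over all tested genes. The difference between backgrounds and the comparison of Bcor-/- with WT MEP were fitted on the 10 MEP libraries. The difference between cell types was fitted on the LSK minus MEP difference of each mouse. The fits were tested on simulated data, where the variance shared by both genotypes, given the spread of the double knockout libraries, also called unchanged genes after adjustment. Alternatives were another pseudocount, minimum, scaling, variance model, a replicate block and each library left out. Without 1 double knockout library the lone library is assumed to vary like the Dnmt3a-/- libraries.

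The genes named are the 12 largest increases and 12 largest decreases with adjusted p under 0.05 and no overlap, up to 4 called members of each of 30 gene lists by smallest p with defining members that were not called, the genes the study names, and the 6 widest gaps between the double knockout libraries. Irf7, Isg15, Ifitm2, Bcl2l1, C1qb, Ccr2, Irf8, Cd79a, Hoxb7, Hoxb8, Klf1, Gapdh, Pkm, Bpgm and Mki67 were added after their values were seen. The comparison, its members and the lists were chosen with earlier results of these data known. Promoters came from RefSeq (GRCm38.p6).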

Additional observations from a re-analysis of the deposited data

Results flagged for a closer look

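The change of Bcor-/-Dnmt3a-/- against Dnmt3a-/- MEP differed from that of Bcor-/- against WT MEP for 24 of 40 genes examined. This was a limma test of the difference itself with an adjusted p under 0.05 over all tested genes, which 1809 genes (16.2%) passed. The first change may also hold a difference in the extent of Dnmt3a loss and the state of leukemia, as said at the start. The 40 are the 12 largest increases, the 12 largest decreases, the genes the study names and the 6 widest gaps between DKO1 and DKO2, so that the called members of the gene lists, Retnlg among them, were not examined here. As 21 of the 24 were chosen for the size of their change against Dnmt3a-/- MEP, which is part of the difference tested, their number and values are a description. Differences are log2, Dnmt3a-/- background minus WT background. Among neutrophil and phagocyte genes the difference was 5.99 for S100a8, 5.81 for S100a9, 5.81 for Chil3, 5.46 for Camp, 5.39 for Lcn2 and 5.09 for Cybb. It was 5.76 for Ifitm6, 5.31 for Gimap4, 5.21 for Lgmn, 5.16 for Apol11b, 4.91 for S100a6 and 4.89 for AA467197. Among genes that fell it was -3.53 for Pf4, -2.99 for Zg16, -2.38 for Spon2, -2.33 for Sh2d4a, -2.22 for Khdrbs3, -2.18 for Prss50, -1.71 for Clstn3, -1.68 for Slc26a1 and -1.67 for Nags. For Trp53 it was -1.10, for Bid -0.78 and for Bak1 -0.64. With a separate variance per genotype 43 genes in all passed adjustment, Zg16 (adjusted p = 0.0303), Cybb (0.0165), Apol11b (0.0165), Lgmn (0.0199), Chil3 (0.0373) and S100a6 (0.0373) among them, of which Cybb and Apol11b entered the test through their double knockout values.

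The effect of the double knockout against Dnmt3a-/- differed between LSK and MEP for 12 of the same 40 genes by the same kind of test, within mice. The largest changes and the widest gaps were chosen by their MEP values, which are part of the difference tested. Their number and values are therefore a description. LSK minus MEP, the log2 difference was -2.76 for S100a8, -2.68 for S100a9, -2.23 for Chil3, -2.01 for S100a6 and -1.31 for Cybb, whose effect was smaller in LSK. It was 3.25 for Prss50 and 2.93 for Sh2d4a, which were at most at 2.5 FPKM in these LSK libraries, 2.29 for Gata1, -2.10 for Gata2, 1.51 for Vpreb1, 1.33 for Igll1 and 0.88 for Bak1. Bak1 was at 55.1 and 35.8 FPKM in double knockout LSK and 39.2, 38.5 and 41.2 FPKM in Dnmt3a-/- LSK. Over all genes 11.7% passed, and with a separate variance per genotype 5 genes.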

How the results depend on the processing

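The number of called genes (3295) ranged from 2377 to 4807 when each library was left out. It was 1963 with an adjusted p and 1789 at a fold above 2. The 1881 higher genes became 1202 at a minimum of 5 FPKM, 1242 after quantile normalization and 981 with an adjusted p, and the 1414 lower genes became 2282 after quantile normalization, 2280 after median centring and 405 at a fold above 2. After adjustment 0 to 2 genes remained without a Dnmt3a-/- library, and 4538 and 4258 without DKO1 and DKO2. The difference between backgrounds fell from 3044 to 1720 genes with an adjusted p. That between LSK and MEP fell from 3341 to 1284 with an adjusted p and to 2205 with a separate variance per genotype, and ranged from 2222, without the second Dnmt3a-/- library, to 4648 when each library was left out. With the replicate number as a block 2393 genes were called and 1 after adjustment. Same-numbered libraries of the double knockout and Dnmt3a-/- mice share a number, not a source, and their deviations correlated at 0.204 and 0.141. Without the pairing by mouse, as 2 unpaired cell types, the LSK and MEP difference was called for 2626 genes.

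Signs turned for genes that were not called. Igll1 (0.15) was at -0.45 with a pseudocount of 0.1, at -0.033 after median centring and between -4.47 and 4.77 with 1 library left out. Dnmt3a (0.39) was at -0.13 after quantile normalization and between -0.018 and 0.81, and Mir703 (-0.76) at 0.55 with the block and between -5.02 and 3.51. Left out in turn, libraries gave -0.29 to 0.14 for Bcor, -1.48 to 0.25 for Gata1, -3.93 to 5.0 for Vpreb1, -7.42 to 3.43 for Hbb-b1 and -0.98 to 0.24 for Parp1. The cause of these shifts was not tested. Depth is unknown, and with 2 libraries against 3 the precision of each value rests on the gap between DKO1 and DKO2.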
